A study of Mus musculus with 10 samples.

Results

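The glucocorticoid receptor gene Nr3c1 and 9 genes that supply or answer to the receptor were followed in mouse aorta with and without Ptgds, which encodes an enzyme (L-PGDS) that makes prostaglandin D2 from its precursor. The 10 genes were taken by symbol from the array's annotation, which lists 30 probe sets for them among 45101, and 14321 genes could be tested in all. A probe set is a group of short probes that together give 1 value for a transcript. Of the 30, 28 passed the filter on low values, and every gene kept at least 1. Total RNA came from the aorta of male C57BL/6 mice housed in groups on chow under a light and dark cycle; 1 group was wild type and the other Ptgds-/-. The labels list 5 biological replicates of each genotype, and wild type replicate 2 is labelled as excluded and has an empty column, so 4 wild type and 5 knockout arrays were compared. Mouse age, the design of the allele, litters and the hour of dissection are not given in the sources used here. The labels call the samples biological replicates without saying that each is 1 mouse.

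Glucocorticoids, corticosterone in mice, enter the cell and bind the receptor encoded by Nr3c1, which is held ready by HSP90 and its co-chaperones. Hsd11b1 encodes the enzyme that regenerates active corticosterone inside the cell. The bound receptor moves to the nucleus and binds a palindromic DNA element, and Fkbp5, Tsc22d3, Zbtb16, Klf9, Sgk1, Mt1, Mt2 and Errfi1 are among the genes it is known to induce. Several of these genes answer to other signals as well: the metallothioneins Mt1 and Mt2 to zinc and other metals, Errfi1 to EGF receptor signalling, Sgk1 to aldosterone and serum, and Klf9 to the circadian clock.

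The stretches just before the start of transcription are shown for 4 targets, chosen because Fkbp5 had the widest difference between the genotypes, Sgk1 and Mt1 held a match to a longer form of the receptor's element, and Mt2 varied with Mt1 from array to array. Each is the 250 bases before a RefSeq start in GRCm38.p6, on the strand of the gene. They lie at chr17:28486150-28486399 (minus strand) for Fkbp5, chr10:21993640-21993889 (plus) for Sgk1, chr8:94178839-94179088 (plus) for Mt1 and chr8:94172368-94172617 (plus) for Mt2. Capitals mark matches on either strand to the core of the glucocorticoid response element, ACANNNTGT, or to the metal response element, TGCACNC or TGCGCNC.
Fkbp5: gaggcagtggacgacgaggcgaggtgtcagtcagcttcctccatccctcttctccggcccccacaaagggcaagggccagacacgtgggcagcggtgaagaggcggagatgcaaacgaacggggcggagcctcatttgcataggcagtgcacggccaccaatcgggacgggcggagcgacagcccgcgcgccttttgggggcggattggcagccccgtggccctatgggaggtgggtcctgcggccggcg
Sgk1: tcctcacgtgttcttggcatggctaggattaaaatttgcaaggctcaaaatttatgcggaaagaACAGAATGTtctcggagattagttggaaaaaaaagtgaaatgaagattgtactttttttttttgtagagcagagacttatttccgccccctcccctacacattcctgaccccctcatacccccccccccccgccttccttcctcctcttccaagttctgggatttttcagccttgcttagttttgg
Mt1: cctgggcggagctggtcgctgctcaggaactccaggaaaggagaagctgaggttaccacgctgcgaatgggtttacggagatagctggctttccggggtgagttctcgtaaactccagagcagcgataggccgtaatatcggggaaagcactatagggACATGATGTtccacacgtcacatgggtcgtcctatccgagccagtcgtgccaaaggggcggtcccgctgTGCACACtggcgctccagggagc
Mt2: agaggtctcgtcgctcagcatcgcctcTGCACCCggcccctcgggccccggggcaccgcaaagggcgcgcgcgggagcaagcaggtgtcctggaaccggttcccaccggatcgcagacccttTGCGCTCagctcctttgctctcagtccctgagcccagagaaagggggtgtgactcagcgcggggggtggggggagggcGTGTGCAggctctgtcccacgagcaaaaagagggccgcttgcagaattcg

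In the Sgk1 stretch the core match, ACAGAATGT, lies from −186 to −178, where −1 is the base before the start. In Mt1 the match ACATGATGT lies from −92 to −84 and a metal element, TGCACAC, from −23 to −17. Mt2 held 3 metal elements and no core match, and the Fkbp5 stretch held none of these letters. A longer form of the element, with a G and a C added outside the core and 1 free base between, was matched at the same places in Sgk1 and in Mt1, as GAACAGAATGTTC and GGACATGATGTTC. Across all 32851 stretches of this length in the RefSeq table, 5.84% held the core, 0.387% the longer element and 21.4% a metal element. Starts of 8 of the 10 genes were read, 16 in all. Of the 16, 3 held the core, 2 of them among the 6 starts of Sgk1, and 3 held a metal element. Zbtb16 has no entry in the table, and Nr3c1, the receptor gene itself, was left out of these counts. A match is only a match of letters, and no match says only that these letters are not in this window.

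Values are read as log2, so a difference of 1 is a doubling, and changes are knockout minus wild type with the standard error (SE) and 95% interval of the limma fit. In the comparison of genotypes, 8 of the 10 genes lay lower in the knockout aortas, where 43.3% of all 14321 genes tested did. The median change of the 10 was −0.23 against 0.03 over all genes. In limma 0 of the 10 passed a Benjamini-Hochberg adjusted p of 0.05, where 8 genes in all, 0.0559%, did, of which those lower in the knockout were 0.0279% of the genes tested. At an unadjusted p under 0.05 there were 4 (Fkbp5, Tsc22d3 and Mt2 lower, Nr3c1 higher), against 19.9% of all genes. The groups did not overlap for 1 of the 10, Fkbp5, against 6.76% of all genes, and 2.16% were without overlap and lower like Fkbp5. In whole tissue, fewer cells of a type and less RNA per cell cannot be told apart. The targeted gene Ptgds lay between 8.68 and 10.31 on the wild type arrays and between 3.67 and 4.40 on the knockout arrays.

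**Figure D1:**
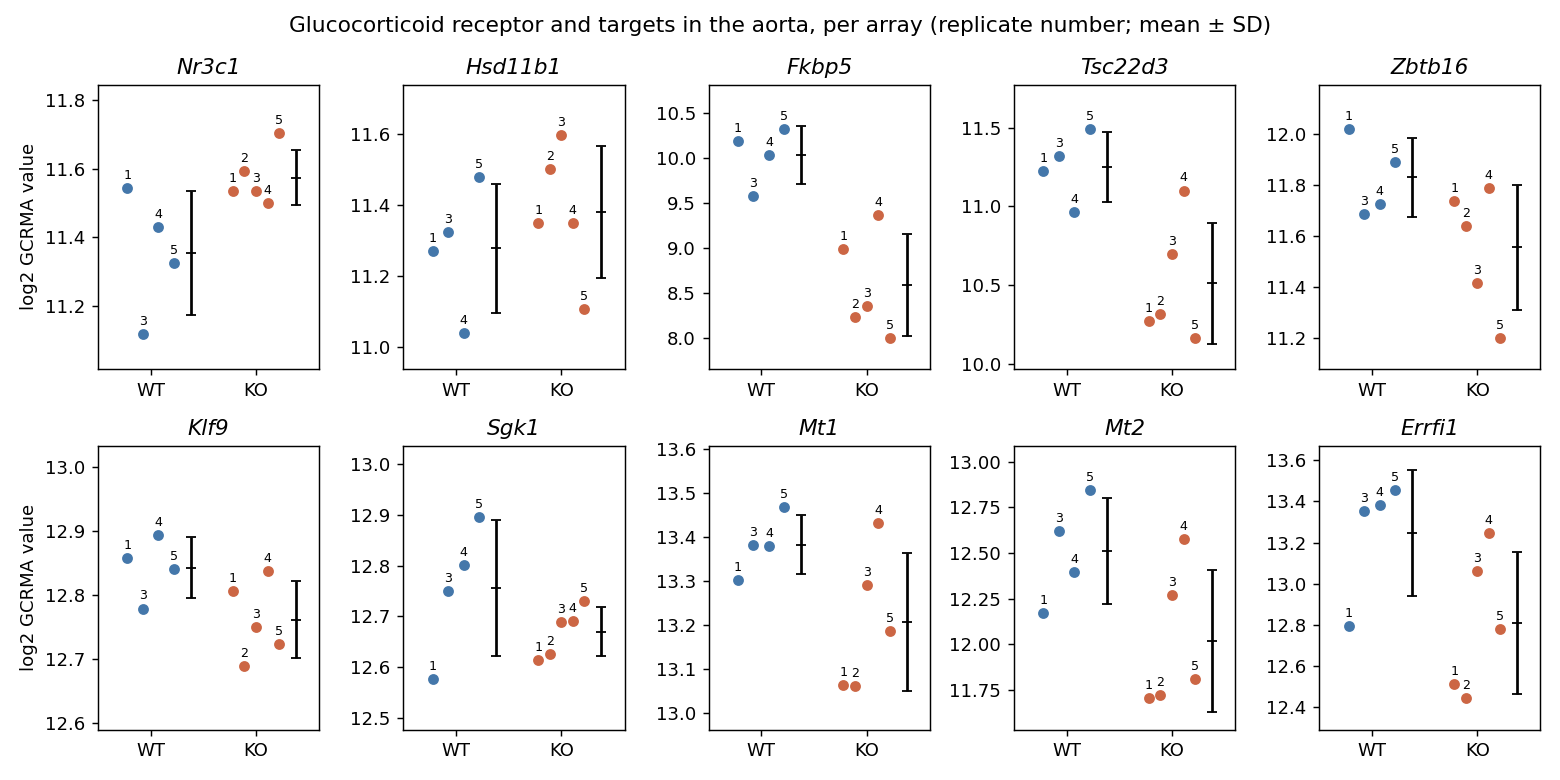
Log2 GCRMA value (y axis, a separate range for each gene, not starting at 0) of the brightest probe set of each of the 10 genes on every array, in wild type (WT) and Ptgds knockout (KO) aortas; the number beside a point is the replicate, and bars show the mean ± SD of the 4 or 5 arrays. Fkbp5 is the only gene shown whose groups do not overlap, and knockout replicate 4 is the highest knockout array for 7 of the 10 genes.

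The receptor gene itself was measured by 6 probe sets, which did not move one way. Its brightest, 1457635_s_at, read 11.54, 11.12, 11.43 and 11.33 in the wild type group, given here and below in the order of replicates 1, 3, 4 and 5. It read 11.54, 11.59, 11.54, 11.50 and 11.70 in the knockout group, in the order of replicates 1 to 5. The knockout arrays sat at or above the upper part of the wild type range, with 2 of 5 above it. The change was +0.22 (SE 0.09, interval 0.02 to 0.42, adjusted p 0.219). Probe sets 1460303_at and 1421867_at stood at +0.16 (SE 0.08) and +0.03 (SE 0.08). Probe set 1421866_at stood the other way at −0.32 (SE 0.10, adjusted p 0.165 in the fit of all probe sets), with 4 of 5 knockout values under the lowest wild type value. The last pair lay near the floor of 4, at −0.11 (SE 0.08) and 0.00 (SE 0.07). With the 6 probe sets averaged the change of Nr3c1 was −0.00067 (SE 0.06, adjusted p 0.995), so no direction can be given for the receptor transcript.

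Hsd11b1, on its only probe set, read 11.27, 11.32, 11.04 and 11.48 in wild type and 11.35, 11.50, 11.60, 11.35 and 11.11 in knockout aortas. The groups overlapped over most of their range. The change was +0.10 (SE 0.12, interval −0.16 to 0.37, adjusted p 0.647), so a rise of more than 0.37 lies outside the interval. Leaving out 1 array gave 0.02 (without wild type replicate 4) to 0.17 (without knockout replicate 5). H6pd, which makes the cofactor that drives this enzyme, lay at −0.22 (SE 0.07, adjusted p 0.164), without overlap between the groups. Akr1c14, a reductase that acts on steroids, lay at +0.26 (SE 0.07, adjusted p 0.144), also without overlap. Abcb1a, a drug and steroid exporter, stood at −0.34 (SE 0.23, adjusted p 0.436). Of the 9 tested genes of steroid supply, 3 were lower and 6 higher with a median of 0.02, and 0 passed in limma. Of these 9, 2 had an unadjusted p under 0.05, against 19.9% of all genes. H6pd and Akr1c14 were the only 2 of the 9 without overlap, against 6.76% of all genes.

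Fkbp5 encodes FKBP51, a co-chaperone that lowers the receptor's affinity for hormone and closes a negative feedback loop. On probe set 1416125_at it read 10.19, 9.58, 10.03 and 10.33 on the wild type arrays and 8.99, 8.23, 8.35, 9.36 and 8.001 on the knockout arrays. Every knockout array lay below every wild type array, and the closest pair was knockout replicate 4 at 9.36 and wild type replicate 3 at 9.58. The means were 10.03 ± 0.32 (SD, n = 4) and 8.59 ± 0.57 (SD, n = 5), a change of −1.44 (SE 0.28, interval −2.09 to −0.80), or 2.72-fold lower with an interval of 1.74-fold to 4.25-fold. The adjusted p was 0.105 (limma), which misses the threshold. By size it was the 30th lowest change and by p the 89th smallest of 14321 genes. The second probe set, 1448231_at, gave a like change of −1.41 (SE 0.38, adjusted p 0.134) with knockout replicate 4, at 5.86, among the wild type values of 5.60 to 6.85 and the other 4 knockout values under them. The remaining probe set, 1447736_at, lay under 4 on all 9 arrays and was not tested.

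Tsc22d3, the glucocorticoid-induced leucine zipper GILZ, which carries part of the anti-inflammatory action of the hormone, came next. It read 11.23, 11.32, 10.96 and 11.49 in wild type and 10.27, 10.32, 10.70, 11.10 and 10.17 in knockout aortas on probe set 1420772_a_at. Replicate 4 of the knockout stood among the wild type values and the other 4 knockout arrays below them. The change was −0.74 (SE 0.20, interval −1.18 to −0.30, adjusted p 0.135), or 1.67-fold lower. Probe set 1425281_a_at stood at −0.78 (SE 0.18, adjusted p 0.113), with the same 4 arrays below the wild type range. Another, 1425557_x_at, stood at −0.11 (SE 0.07), and the last, 1444365_at, lay under 4 on all arrays.

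Zbtb16 encodes PLZF, a zinc finger repressor that glucocorticoids induce in many tissues. Its brightest probe set, 1419874_x_at, read 12.02, 11.69, 11.73 and 11.89 in wild type and 11.74, 11.64, 11.41, 11.79 and 11.20 in knockout aortas, a change of −0.27 (SE 0.13, interval −0.57 to 0.02, adjusted p 0.280). Knockout replicate 5 was the lowest array and replicates 1 and 4 lay within the wild type range. The other 2 probe sets stood at −0.70 (SE 0.36) and −0.33 (SE 0.13). On 1439163_at, which gave the wider of these changes, knockout replicate 5 read 7.25 and the other knockout arrays 8.42 to 9.07, against 8.97 to 9.66 in wild type.

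Klf9, a Krüppel-like repressor whose level follows both glucocorticoids and the clock, had probe sets that differed in the size of their change. Its brightest read 12.86, 12.78, 12.89 and 12.84 in wild type and 12.81, 12.69, 12.75, 12.84 and 12.72 in knockout aortas. The change was −0.08 (SE 0.05, interval −0.20 to 0.04, adjusted p 0.422). All 7 probe sets had changes below 0, from −0.39 to −0.04, and the widest, 1422264_s_at at −0.39 (SE 0.12, adjusted p 0.152), had 3 of 5 knockout arrays below the wild type range.

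Sgk1, a kinase that promotes sodium and potassium transport, was measured by 1 probe set. It read 12.58, 12.75, 12.80 and 12.90 in wild type and 12.61, 12.63, 12.69, 12.69 and 12.73 in knockout aortas. All 5 knockout arrays lay within the wild type range. The change was −0.09 (SE 0.07, interval −0.24 to 0.07, adjusted p 0.515), so a fall of more than 1.18-fold lies outside the interval. Leaving out 1 array gave −0.15 (without wild type replicate 1) to −0.04 (without wild type replicate 5).

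The metallothioneins Mt1 and Mt2 encode small cysteine-rich proteins that bind zinc and copper, from neighbouring genes. Mt2 read 12.17, 12.62, 12.40 and 12.85 in wild type and 11.70, 11.72, 12.27, 12.58 and 11.81 in knockout aortas. Knockout replicates 1, 2 and 5 lay below the wild type range, and replicates 3 and 4 within it. The change was −0.49 (SE 0.21, interval −0.97 to −0.02, adjusted p 0.238), or 1.41-fold lower. Mt1 read 13.30, 13.38, 13.38 and 13.47 against 13.06, 13.06, 13.29, 13.43 and 13.19 on 1422557_s_at, a change of −0.18 (SE 0.09, adjusted p 0.286). Here knockout replicate 4 alone reached the wild type values.

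The 2 probe sets of Mt1 disagreed. On 1451612_at the wild type arrays read 8.39, 8.88, 8.95 and 8.84 and the knockout arrays 8.04, 8.48, 10.23, 9.52 and 10.00, a change of +0.49 (SE 0.43). Knockout replicates 3, 4 and 5 lay above every wild type array and replicate 1 below. With the pair averaged the change of Mt1 was +0.16 (SE 0.25, adjusted p 0.754), so the direction of Mt1 depends on the probe set. The name ending _s_at marks a probe set whose probes can match more than 1 transcript, and Mt1 and Mt2 are close relatives, so how far each probe set separates them is uncertain. Of the other metal-regulated genes tested, 6 of 8 were lower and 2 higher, with a median of −0.08. Hmox1, haem oxygenase, stood at −0.43 (SE 0.12, adjusted p 0.136), the zinc transporter gene Slc39a14 at −0.37 (SE 0.13, adjusted p 0.183) and the metal-sensing factor Mtf1 at +0.20 (SE 0.10, adjusted p 0.322). In limma 0 of these 8 passed, and 2 had an unadjusted p under 0.05, against 19.9% of all genes.

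Errfi1 encodes MIG6, a feedback inhibitor of the EGF receptor. Probe set 1416129_at read 12.80, 13.36, 13.38 and 13.46 in wild type and 12.51, 12.44, 13.06, 13.25 and 12.78 in knockout aortas. Wild type replicate 1 stood apart from the other wild type arrays and lay among the knockout arrays. The change was −0.44 (SE 0.20, interval −0.89 to 0.01, adjusted p 0.259), and −0.59 (SE 0.19, adjusted p 0.094) without wild type replicate 1. The other probe set, 1419816_s_at, gave −1.28 (SE 0.46, adjusted p 0.190) from 8.32 ± 0.82 (SD, n = 4) to 7.03 ± 0.76 (SD, n = 5), with wild type replicate 1 again the lowest of its group, at 7.13. Among 13 tested genes of EGF receptor signalling 5 were lower and 8 higher, with a median of 0.02. The ligand gene Hbegf stood at −0.64 (SE 0.19, adjusted p 0.149), the receptor gene Erbb2 at +0.27 (SE 0.09, adjusted p 0.177) and the ligand gene Ereg at −0.36 (SE 0.18, adjusted p 0.296). In limma 0 of the 13 passed, and 2 had an unadjusted p under 0.05, against 19.9% of all genes.

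Over all 28 tested probe sets of the 10 genes, 22 lay lower in the knockout, where 47.3% of the 26504 probe sets tested did. In limma 0 of the 28 passed over all probe sets, against 0.0792% of them, and the smallest adjusted p was 0.10, for Fkbp5. At an unadjusted p under 0.05 there were 10, against 18.9%, and 1 had groups that did not overlap, against 6.42%. Probe sets of 1 gene measure the same transcripts and are not separate evidence. The brightest probe sets of Mt1, Errfi1, Klf9 and Sgk1 read between 12.44 and 13.47, where the highest value of any probe set on an array was 14.57 to 14.81.

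**Figure D2:**
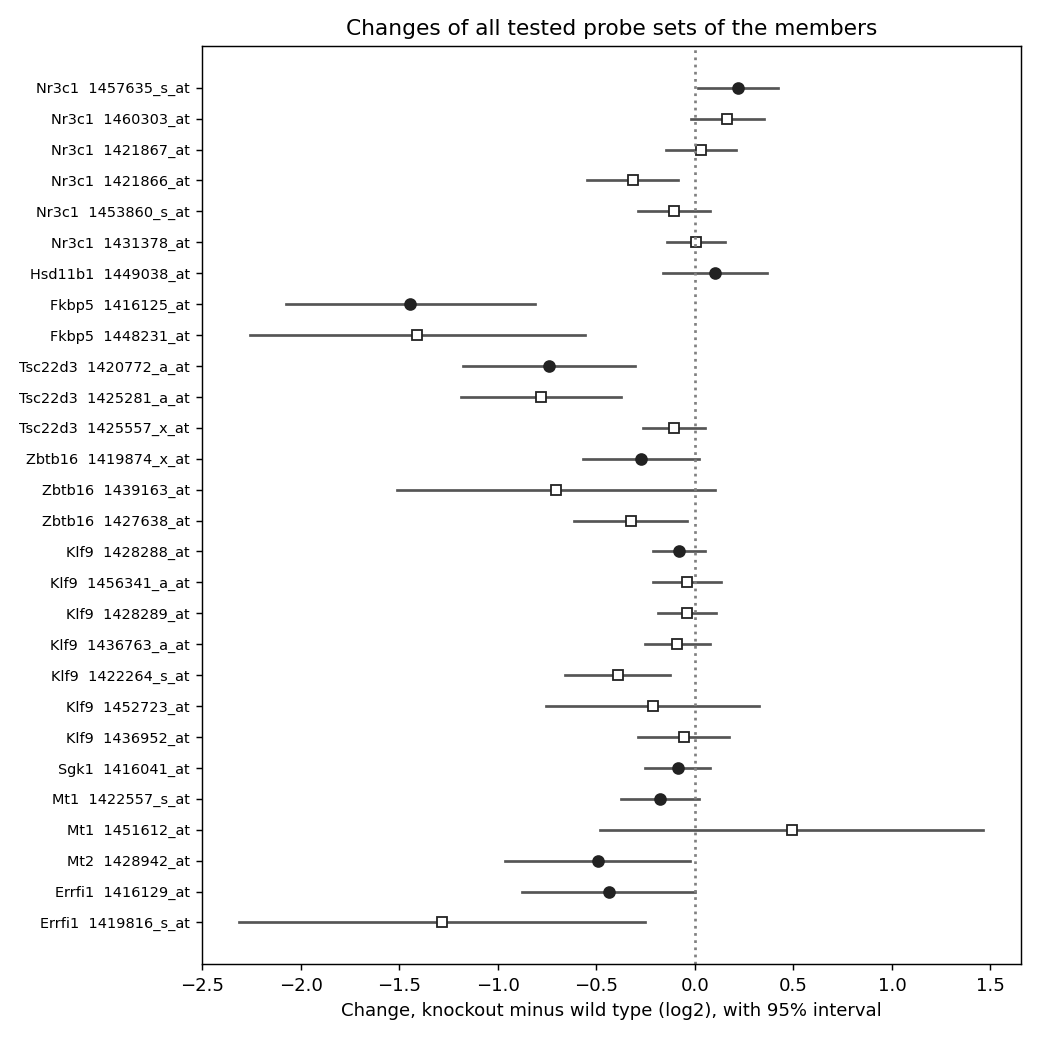
Change between knockout and wild type (x axis, log2) with its 95% interval for the 28 tested probe sets of the 10 genes (y axis, gene and probe set); filled circles are the brightest probe set of a gene and open squares the others. The intervals of both Fkbp5 probe sets and of 2 of the 3 of Tsc22d3 lie below 0. So do those of Zbtb16 1427638_at, Klf9 1422264_s_at, Mt2 1428942_at and Errfi1 1419816_s_at. Of Nr3c1, the interval of 1421866_at lies below 0 and that of 1457635_s_at above it. The changes of the 2 Mt1 probe sets have opposite signs, and both intervals span 0.

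The difference was carried unequally by the arrays. Knockout replicate 4 was the highest knockout array for Fkbp5, Tsc22d3, Zbtb16, Klf9, Mt1, Mt2 and Errfi1, and it lay within the wild type range for 9 of the 10 genes, Fkbp5 being the exception. Knockout replicate 2, by contrast, lay within the wild type range for 1 of the 10, above it for Nr3c1 and Hsd11b1 and below it for the others. Ptgds on the knockout arrays was 3.86, 3.92, 3.76, 3.67 and 4.40, in the order of replicates 1 to 5. These values lie around the floor of 4, so their order cannot be read. Among wild type arrays, replicate 1 was the lowest for Sgk1, Mt1, Mt2 and Errfi1, and replicate 5 the highest for 7 of the 10 genes. Without knockout replicate 4 the changes were −1.64 (SE 0.23, adjusted p 0.055) for Fkbp5, −0.89 (SE 0.15, adjusted p 0.069) for Tsc22d3 and −0.63 (SE 0.18, adjusted p 0.161) for Mt2. Without wild type replicate 1, 1025 genes (7.09%) passed in limma in place of 8, and Fkbp5 was 1 of them (−1.39, SE 0.33, adjusted p 0.045), the only 1 of the 10 genes. In that fit 3 of the 28 probe sets passed, for Fkbp5, Errfi1 (1419816_s_at) and Klf9 (1422264_s_at), against 6.09% of all probe sets. With arrays weighted by their fit, 1 of the 28 passed, Fkbp5 on 1416125_at (adjusted p 0.0498), against 1.12% of all probe sets.

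**Figure D3:**
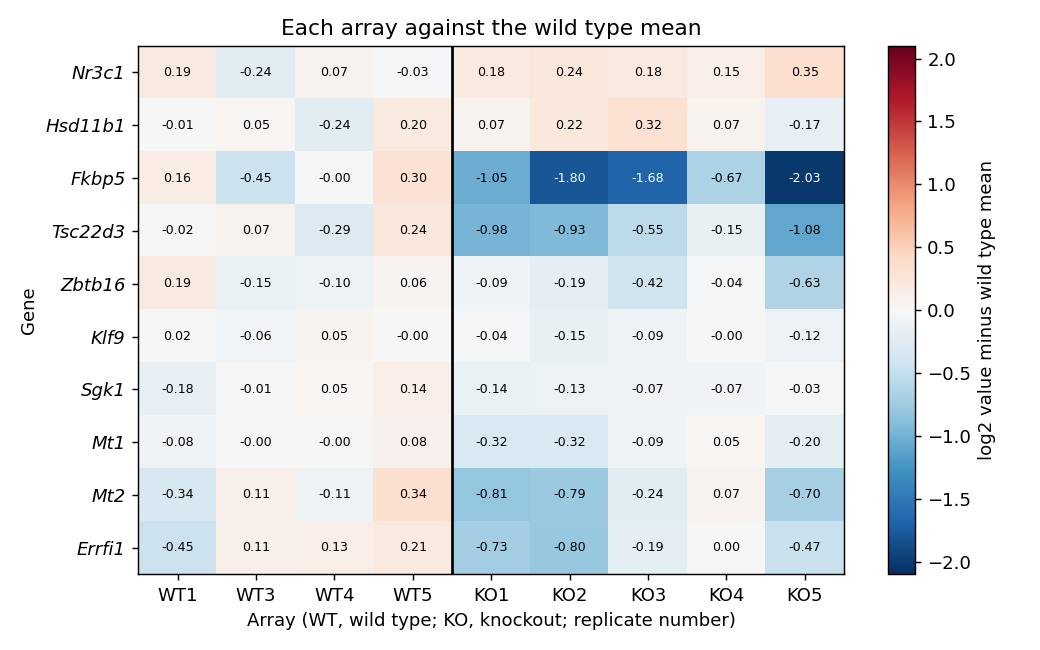
Log2 value of each gene (rows) on each array (columns) minus the mean of the 4 wild type arrays; blue is lower and red higher, and the line separates wild type (WT) from knockout (KO). Fkbp5 is lower on all 5 knockout arrays, by 0.67 on replicate 4 and 2.03 on replicate 5, while Klf9 and Sgk1 lie between −0.18 and 0.14 on every array.

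Whether the targets varied together between arrays of 1 genotype was read from the deviations from the group means over the 9 arrays, in 10 relations: Fkbp5 with each other gene, and Mt1 with Mt2. Mt1 (1422557_s_at) and Mt2 deviated together, with Pearson's r of 0.946 (exact permutation within groups, two-sided, p = 0.00069, adjusted p 0.0069) and Spearman's rho of 0.933 (p = 0.0010, adjusted p 0.010). Without the 2 arrays farthest from the median, r was 0.912. How far these 2 probe sets separate the genes is uncertain, and with the probe sets of each gene averaged the relation did not pass. Fkbp5 went with Klf9 at r = 0.855 and rho = 0.817 (exact permutation p = 0.014 and 0.025, adjusted p 0.071 and 0.083) and with Zbtb16 at r = 0.819 and rho = 0.833 (exact permutation p = 0.026 and 0.021, adjusted p 0.086 and 0.083). Neither passed the adjustment, and r was 0.795 and 0.665 without knockout replicates 4 and 5. With Tsc22d3 r was 0.577 and rho 0.483 (exact permutation p = 0.187 and 0.256, adjusted p 0.468 and 0.641), and r was −0.093 without those arrays, so what relation there was rested on them; without wild type replicate 3 and knockout replicate 1, which are described below, it passed. With Mt1, Mt2, Errfi1, Hsd11b1, Nr3c1 and Sgk1, Fkbp5 had r between −0.046 and 0.410 and rho between −0.183 and 0.300, with exact permutation p of 0.359 or more and adjusted p of 0.674 or more.

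The 5 genes whose deviations were most like those of Fkbp5 over the 9 arrays, of 14320 others, were Paqr4 (r = 0.976), Pde1a (0.941), Vim (0.932), Gpr183 (0.923) and Cyp2b10 (0.922). Klf9 ranked 19th and Zbtb16 45th in this order, while Tsc22d3 ranked 689th. These are the highest of many values and are given as a description. Pde1a, a cyclic nucleotide phosphodiesterase of smooth muscle, stood at −0.29 (SE 0.10, adjusted p 0.178) and Cyp2b10, a cytochrome P450, at −0.77 (SE 0.29, adjusted p 0.202), while Paqr4 (+0.06, SE 0.06), Vim, the intermediate filament vimentin (−0.02, SE 0.04), and Gpr183, an oxysterol receptor (−0.01, SE 0.24), lay near 0.

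Other genes known to be induced through the receptor lay lower in 31 of 38 tested cases, with a median of −0.17 against 0.03 over all genes. Of the 38, 10 were lower at an unadjusted p under 0.05, where 7.12% of all genes were, and 1 was higher, where 12.8% were. This list, like the others here, was chosen with earlier results of these data known, so the counts are a description. In limma 0 passed over all genes, and 4 had groups that did not overlap, against 6.76% of all genes. Angptl4, an inhibitor of lipoprotein lipase, read at least 10.30 on every wild type and at most 10.05 on every knockout array (−0.76, SE 0.16, adjusted p 0.105). Lpin1, a phosphatidate phosphatase, read at least 11.86 and at most 11.75 in the same way (−0.49, SE 0.11, adjusted p 0.111). The factor gene Cebpb stood at −0.47 (SE 0.13, adjusted p 0.136). Angptl4 and Lpin1 are also expressed in fat, and this list shares Per1 with the clock genes and Cd163 with the macrophage markers below. The mean of the 38 genes was 10.44 to 10.64 on the wild type arrays, 10.57 on knockout replicate 4 and 10.16 to 10.34 on the other knockout arrays.

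Genes of the receptor's chaperone machinery were lower in 11 of 13 tested cases, with a median of −0.09, and 0 passed in limma. Of the 13, 5 were lower and 1 was higher at an unadjusted p under 0.05, against 7.12% and 12.8% of all genes. Dnaja1, an HSP40, stood at −0.37 (SE 0.07, adjusted p 0.105) and Hspa1a, the inducible HSP70, at −1.02 (SE 0.24, adjusted p 0.118), while Stub1, the ligase CHIP that degrades chaperone clients, stood at +0.28 (SE 0.06, adjusted p 0.117). The groups did not overlap for any of these 3, the only 3 of the 13 without overlap, against 6.76% of all genes. The mean of the 13 was 10.75 to 10.93 on the wild type arrays, 10.67 on knockout replicate 4 and 10.52 to 10.68 on the other knockout arrays. Coactivators and corepressors were split, with 6 of 12 lower and 6 higher and a median of 0.02. Ppargc1a, a coactivator of mitochondrial genes, stood at −0.69 (SE 0.27, adjusted p 0.209), the methyltransferase gene Carm1 at +0.13 (SE 0.05, adjusted p 0.186) and the deacetylase gene Hdac1 at +0.13 (SE 0.05, adjusted p 0.223). In limma 0 of these 12 passed, and 3 had an unadjusted p under 0.05, against 19.9% of all genes.

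Inflammatory genes that glucocorticoids are known to hold down were looked at next. Of 16 on the list 6, among them Il6 and Tnf, did not pass the filter on low values, and of the 10 tested 7 were lower and 3 higher, with a median of −0.10. Csf1, a growth factor of macrophages, stood at +0.26 (SE 0.08, adjusted p 0.149) without overlap between the groups, Ptgs2, cyclooxygenase 2, at −0.58 (SE 0.30, adjusted p 0.315) and the protease gene Mmp3 at −0.42 (SE 0.24, adjusted p 0.362). In limma 0 of the 10 passed, and 1 had an unadjusted p under 0.05, against 19.9% of all genes. Csf1 was the only 1 of the 10 without overlap, against 6.76% of all genes. Relatives of Tsc22d3, Sgk1, Klf9 and Zbtb16 and the sodium channel genes that Sgk1 acts on were lower in 12 of 16 tested cases. The other 4 were higher, the median was −0.06 and 0 passed in limma. Of the 16, 2 had an unadjusted p under 0.05, against 19.9% of all genes. Klf13, a repressor close to Klf9, had the smallest p (−0.25, SE 0.07, adjusted p 0.150), with all 5 knockout arrays below the wild type range. It was the only 1 of the 16 without overlap, against 6.76% of all genes. Next by p were Tsc22d4 (+0.19, SE 0.07) and Tsc22d2 (−0.15, SE 0.09).

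**Figure D4:**
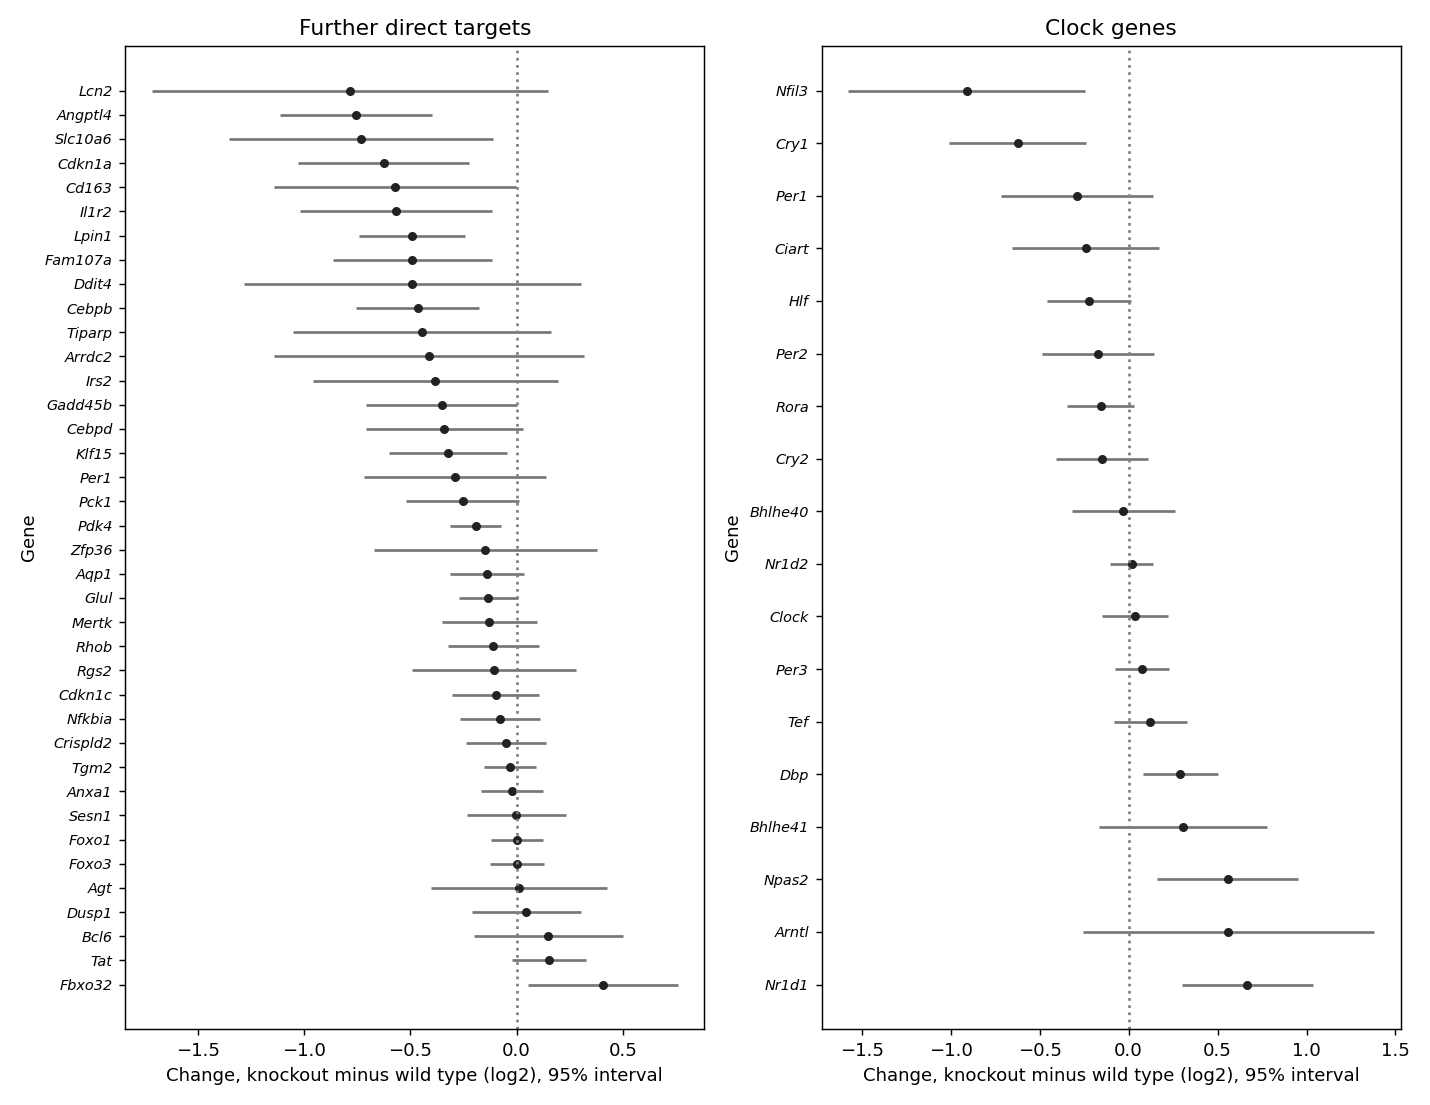
Change between knockout and wild type (x axis, log2) with its 95% interval for 38 further genes induced through the receptor (left) and 18 clock genes (right), ordered by change. Of the targets 31 lie below 0, and of the clock genes 9 lie on each side, from Nfil3 at −0.91 to Nr1d1 at +0.67.

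Corticosterone and several of its targets are known to follow the time of day, and the hour of dissection is not known here, so clock genes are given beside them. Of 18 tested, 9 were higher and 9 lower (median −0.01), and 0 passed in limma, with 5 at an unadjusted p under 0.05, against 19.9% of all genes. Nr1d1, a repressor of the clock, read 9.79, 9.37, 9.27 and 9.31 in wild type and 10.28, 10.31, 10.15, 9.61 and 10.17 in knockout aortas (+0.67, SE 0.16, adjusted p 0.131). Cry1, of the repressive limb, read 10.32, 10.46, 10.77 and 10.77 against 9.85, 10.03, 9.61, 10.45 and 9.84 (−0.62, SE 0.17, adjusted p 0.136). In both, replicate 4 was the only knockout array among the wild type values, as it was for Tsc22d3. Npas2, a partner of BMAL1, stood at +0.56 (SE 0.18, adjusted p 0.154), with replicate 4, at 6.93, again the only knockout array among the wild type values of 6.58 to 7.13. Nfil3, a repressor named here after its values were seen, had the lowest change of the 18 (−0.91, SE 0.30, adjusted p 0.160), with 2 of 5 knockout arrays below the wild type range. The part of the clock in the values of the targets was not tested.

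Markers of the cells that such a sample can hold were set beside these genes as means of the tested markers on each array. The 8 smooth muscle markers lay between 12.09 and 12.33 on all 9 arrays, and 6 were higher in the knockout and 2 lower. At an unadjusted p under 0.05, 3 were higher, where 12.8% of all genes were, and 1 was lower, where 7.12% were. Tagln (+0.12, SE 0.05, adjusted p 0.207) was the only 1 of the 8 without overlap, against 6.76% of all genes. White adipocyte markers (7 of 7 lower) ran from 10.63 to 11.14 in wild type and from 9.95 to 10.94 in knockout aortas, the lowest being knockout replicate 5. Brown adipocyte markers (8 of 8 lower) ran from 10.90 to 11.59 and from 10.35 to 11.07. Endothelial markers (8 of 8 lower) ran from 9.14 to 9.65 and from 8.94 to 9.26. Macrophage markers (8 of 8 lower) ran from 8.90 to 10.00 and from 9.05 to 9.38. At an unadjusted p under 0.05, 4 of the 8 endothelial markers and 1 of the 8 macrophage markers were lower. So were 2 of the 7 white and 2 of the 8 brown adipocyte markers, against 7.12% of all genes. The 7 fibroblast markers ran from 11.69 to 12.35 and from 11.75 to 12.16. With the mean of the white adipocyte markers as a covariate the change of Fkbp5 was −1.29 (SE 0.32, adjusted p 0.363), that of Tsc22d3 −0.53 (SE 0.17, adjusted p 0.416), that of Mt2 −0.27 (SE 0.19, adjusted p 0.627) and that of Errfi1 −0.27 (SE 0.20, adjusted p 0.650). The covariate itself averaged 10.93 in wild type and 10.60 in knockout aortas, so this fit cannot separate fat in the sample from genotype. The parts of brown adipocytes, endothelial cells and macrophages were not tested.

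Signal of neurons, muscle and lymphoid cells was uneven between single arrays. Neuron markers (7 of 7 lower, 0 at an unadjusted p under 0.05) ran from 5.33 to 10.96 in wild type and from 5.27 to 9.24 in knockout aortas. Wild type replicate 3 and knockout replicate 1 were highest. In a fit without these 2 arrays, chosen after seeing the data, 8 of the 10 genes were lower, with a median of −0.23. The part of neurons was not tested. Skeletal muscle markers (5 of 5 tested higher, 0 at an unadjusted p under 0.05) lay between 4.53 and 5.08 on all arrays but knockout replicate 3, at 9.68. Myh1 and Myh4 did not pass the filter. Lymphocyte markers were highest on knockout replicate 4, at 6.97 against 4.81 to 6.08 on the other arrays. Cardiomyocyte markers ran from 6.08 to 8.79 and Schwann cell markers from 8.86 to 10.71 over all arrays. Adrenal cortex markers gave a mean of 5.07 to 5.57, with the corticosterone synthase gene Cyp11b1 and the aldosterone synthase gene Cyp11b2 not past the filter.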

How the data were processed

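Aorta RNA was hybridised to 1-colour Affymetrix arrays. The authors used GCRMA, which is named in the submitters' processing notes and subtracts background and sets arrays to 1 scale. The deposited log2 values are 1 for each probe set; log2 was read from their range (highest value on an array 14.57 to 14.81), since neither scale nor version is given in the sources used here. The platform annotation gives 1 symbol to 34945 of 45101 probe sets. Those over 4 on at least 4 arrays were tested: 26504 probe sets, and 14321 genes by their brightest probe set. The test was limma 3.58.1 (R 4.3.3) with both genotypes and no covariate, Benjamini-Hochberg adjustment over all genes or all probe sets, and a threshold of 0.05; it was tested on simulated data. The p-values set the difference between the genotypes against the spread between these samples, and the number of arrays limits the precision. Array medians were 5.88 to 5.97.

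The 10 genes, the gene lists and the tests were chosen with earlier results of these data known. Genes were named by this rule: the 10 genes with every probe set, the 3 genes with the smallest p of each pathway list, and the 5 genes most like Fkbp5. Other settings tried were a second quantile normalization, equal array medians, no filter or a floor of 6, the mean of a gene's probe sets, trend and robust moderation, array weights, an adipocyte covariate, the replicate number as a block and leaving out each array; leaving out 2 arrays together was chosen after seeing the data.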

Additional observations from a re-analysis of the deposited data

Results flagged for a closer look

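Of 56 groups of arrays (28 probe sets in 2 genotypes), 1 held an array far from the others by Dixon's test at the 95% level, which chance alone reaches in about 1 group in 20. Errfi1 on 1416129_at read 12.80 on wild type replicate 1, against 13.36 to 13.46 on the other wild type arrays.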

How the results depend on the processing

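Under 19 other settings, of which the 1 that left out 2 arrays was chosen after seeing the data, the median change of the 10 genes stayed below 0, from −0.28 to −0.16, and 8 of the 10 lay lower under each; 8 genes kept their direction in all of them. Nr3c1 turned to −0.00067 and Mt1 to +0.16 with the probe sets of a gene averaged. The number of the 10 genes called was 0 to 1 when any 1 array was left out, and 0 under the other alternatives; that of their probe sets was 0 to 3 when 1 array was left out and 1 with array weights (Fkbp5, against 1.12% of all probe sets). Over all genes the count of 8 became 19 with a floor of 6, 33 with trend and robust moderation, 73 with array weights, 2 with the adipocyte covariate, 3 without the 2 arrays with most neuron signal, and 2 to 1025 when 1 array was left out. With the replicate block the count was 0 (1963 at an unadjusted p under 0.05) and the change of Fkbp5 was −1.36 (adjusted p 0.357). Same-numbered arrays did not deviate together, with correlations from −0.361 to 0.214. The labels do not say whether they share a litter, day or batch, and these correlations cannot show it. The count of relations that passed, 1, was 0 with probe sets averaged and 1 to 2 when 1 array was left out (Fkbp5 with Klf9 passed without wild type replicate 4), and 2 without the 2 neuron-rich arrays (Fkbp5 with Tsc22d3). The causes were not tested.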
